A study of Ovis aries and Bos taurus with 6 samples.

Results

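The miR-148 and miR-152 family comprises miR-148a, miR-148b and miR-152, which were followed here in extracellular vesicles (EVs) from sheep and cow milk. Cow members were the 3 rows named for them in the cow table. Sheep members were the rows named miR-148a and miR-152, together with every row without a miRBase name whose bases 2 to 8 equal those of miR-148a, of which there was 1, novel29_mature. The family therefore held 6 of 1464 rows, 3 of 685 in the sheep table and 3 of 779 in the cow table. Small RNA was sequenced from milk EVs of Ordos fine wool sheep (3 libraries) and of Holstein cows (3 libraries), all females in mid lactation, in order to compare the miRNAs of the 2 milks. The cow samples were taken from prior work by the same group, and a difference of species therefore cannot be told apart from one of breed or of study. The labels speak of 3 sheep and do not say how many cows gave milk; 1 protocol text names sheep milk for every library, while titles, breeds and row names mark the cow libraries as bovine. EVs were precipitated with a kit, which does not sort them by cell of origin, and more vesicles of a kind cannot be told apart from more miRNA per vesicle.

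A miRNA guides a silencing complex to messenger RNAs that pair with its seed, the bases near its 5′ end, so members of a seed family can bind largely the same sites. miR-148a is known as a major miRNA of milk and of lactating mammary epithelium, and in human cells the family is known to target the DNA methyltransferase DNMT1. miR-152 is known to target DNMT1 in cow mammary epithelial cells. In mammals miR-152 is encoded in an intron of COPZ2 and miR-148b in an intron of COPZ1, which are paralogous coat protein genes. In the sheep RefSeq gene table (assembly ARS-UI_Ramb_v3.0) MIR152 lies within the span of COPZ2, while MIR148A lies within no other listed gene.

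The 3 sheep sequences are shown because they define the family, with the seed in capitals, 5′ to 3′ and written with T as in the deposited table.
oar-miR-148a: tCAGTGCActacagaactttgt
novel29_mature: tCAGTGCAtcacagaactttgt
oar-miR-152: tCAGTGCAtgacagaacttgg
Their first 8 bases were identical. Counted from 1 at the 5′ end and with miR-148a given first, novel29_mature differed by C9T and T10C, so 20 of 22 bases were the same. miR-152 differed from miR-148a by C9T, T10G and T20G, with 18 of 21 bases the same, and from novel29_mature by C10G and T20G. The sequence of novel29_mature is the one known for mature miR-148b in human and mouse, so its counts are set beside cow miR-148b; no file used here lists a miR-148b sequence, and the cow table lists none at all. No other sheep row held a stretch of 15 bases from the start of a member or came within 5 mismatches of one over 20 bases.

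In sheep milk EVs the family was dominated by miR-148a, the most abundant row of every sheep library. It had 217525, 1322230 and 407936 counts in sheep replicates 1, 2 and 3, against 600, 1217 and 402 counts in cow replicates 1, 2 and 3. As a share of all miRNA counts that was 19.6%, 63.6% and 38.0% in sheep, against 0.183%, 0.219% and 0.104% in cow, where miR-148a ranked 32nd, 31st and 39th. The lowest sheep share was 89.6 times the highest cow share, so the groups lay far apart, although the sheep libraries differed among themselves by a factor of 3.25.

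The row novel29_mature, the miR-148b sequence, followed at a much lower level. It had 1652, 7508 and 2372 counts in sheep replicates 1, 2 and 3, and cow miR-148b had 30, 48 and 15 counts. These were 1487, 3612 and 2209 counts per 1000000 miRNA counts (CPM) in sheep, against 91.3, 86.3 and 38.7 CPM in cow. Again the groups did not overlap, and sheep replicate 2 was the highest library for this row as for miR-148a.

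miR-152 was the least abundant member and did not separate the species. Sheep replicates 1, 2 and 3 held 95, 95 and 27 counts of it, against 0, 37 and 1 counts in cow replicates 1, 2 and 3. In CPM it was at 85.5, 45.7 and 25.1 in sheep, against 0, 66.5 and 2.58 in cow. For the count of 0 in cow replicate 1, the 95% Wilson upper limit was 0.00117% of all miRNA counts. A floor of 3 counts in that library, used for drawing, equals 9.13 CPM. Cow replicate 2 alone held nearly all cow counts and lay within the sheep range. Within sheep, the library highest in miR-152 depended on the scale: it was replicate 1 in CPM, but replicate 2 per 1000 counts outside the family (0.127, against 0.107 in replicate 1 and 0.0407 in replicate 3).

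**Figure D1:**
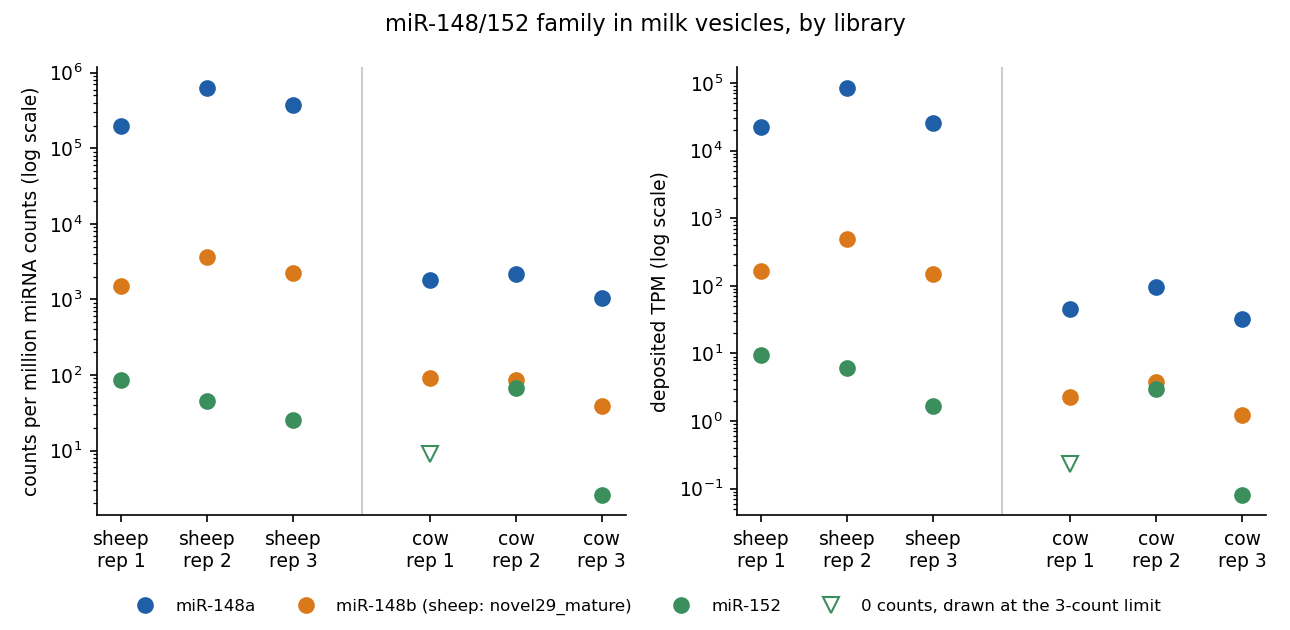
Level of each member in each library, as CPM of all miRNA counts (left) and as deposited TPM (right), both on log axes; each point is 1 library and the open triangle marks 0 counts drawn at the limit of 3 counts. miR-148a and novel29_mature lay higher in all 3 sheep libraries than in any cow library, while the miR-152 points of the species overlapped.

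Within sheep the order of levels was miR-148a, novel29_mature and miR-152 in all 3 libraries, and the ranges of neighbouring members did not overlap. In cow, miR-148a stood clear of the others, but the CPM ranges of miR-148b and miR-152 overlapped. Of the family's own counts miR-148a made up 99.2% to 99.4% in sheep and 93.5% to 96.2% in cow. novel29_mature made up 0.565% to 0.753% of the family in sheep, against 3.59% to 4.76% for miR-148b in cow.

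How large the family appears depends on what it is divided by, but the separation of the species did not. Of all miRNA counts the family took 40.6% ± 22.2 in sheep and 0.178% ± 0.0642 in cow (SD, n = 3 each). Of the counts in rows with a miRBase name, to which novel29_mature was added, it took 62.8% ± 17.5 in sheep and 0.795% ± 0.106 in cow. Relative to the constant that scales the deposited TPM, the family amounted to 4.46% ± 3.59 in sheep and 0.00617% ± 0.00369 in cow, or 2.39% without sheep replicate 2 and 0.00409% without cow replicate 2. The sheep libraries lay above the cow libraries without overlap on each scale. Over the 39 miRNAs compared between the species, sheep lay above cow without overlap for 33.3% by share of all counts and for 51.3% by share of the TPM constant, and below without overlap for 23.1% and 10.3%.

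Much of the difference in depth between the sheep libraries was the family itself. All rows together summed to 1110632, 2078695 and 1073914 counts in the sheep libraries, against 328527, 556489 and 387723 in the cow libraries, in order of replicate. Counts outside the family were 891360, 748862 and 663579 in sheep, against 327897, 555187 and 387305 in cow. Sheep replicate 2, the deepest library, was thus not the deepest in counts outside the family. Relative to 1000 counts outside the family, miR-148a had 244, 1766 and 615 counts in sheep and 1.83, 2.19 and 1.04 in cow.

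**Figure D2:**
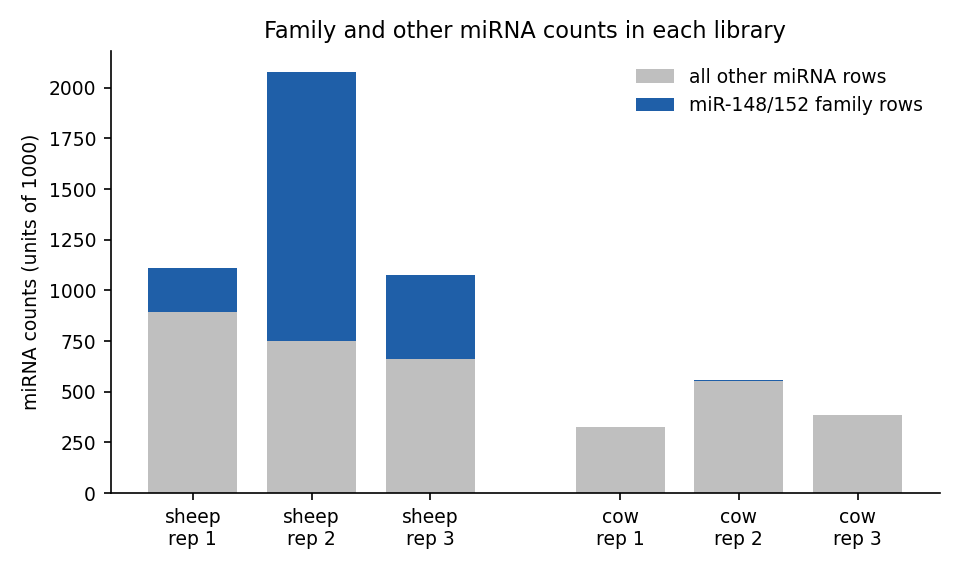
Counts in family rows (blue) and in all other miRNA rows (grey) in each library, stacked, in units of 1000 counts. The grey bars of the 3 sheep libraries lay between 663579 and 891360 counts, and the blue part ranged from 219272 in sheep replicate 1 to 1329833 in sheep replicate 2.

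Rows were grouped by bases 2 to 8 in the sheep table, which gave 520 seeds. The family's seed ranked first in every sheep library, with 19.7%, 64.0% and 38.2% of all counts in replicates 1, 2 and 3. The seed of the let-7 family, a large group of conserved miRNAs that holds 12 sheep rows, ranked second with 13.6%, 9.68% and 17.0%. Cow rows without a miRBase name could not be grouped in this way. They held most cow counts, as named rows made up 21.5%, 29.0% and 15.8% of cow replicates 1, 2 and 3, and a single one, novel237_mature>novel503_mature, took 58.9%, 51.2% and 68.9%. Any cow reads of the family that lie in such rows are outside every cow value given here.

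For the miRNAs with the same name in both tables, sheep and cow were compared with the quasi-likelihood test of edgeR, adjusted by Benjamini-Hochberg over the 38 miRNAs tested. The log2 fold change of miR-148a, sheep over cow, was 8.13 ± 1.30 (SE, adjusted p = 1.77e-08, edgeR, n = 3 libraries each), and it was 6.99 without sheep replicate 2. It was the second largest of the 38 changes after miR-200b, but lay above miR-200b with log2(TPM + 1) (9.41 against 7.09) and log2(TPM + 10) (9.17 against 3.90). That order depends on the added 1 or 10, which largely sets the cow level of miR-200b, at 0, 1 and 0 counts. Cow miR-148a was at 32.3 to 96.7 TPM. miR-152 did not pass (1.05 ± 1.57, adjusted p = 0.534), and its groups overlapped. So 1 of the 2 members tested in this fit was called higher in sheep, where 28.9% of all miRNAs tested were and 52.6% were called in either direction. The median change over all miRNAs tested was 0.43. The miR-152 value was not stable: it was -0.40 without normalization factors, 0.079 without cow replicate 1 and 0.12 without cow replicate 3. It passed as higher in sheep without cow replicate 2 (5.06 ± 1.98, adjusted p = 0.0337, edgeR) and with limma on log2(TPM + 1) (1.86, adjusted p = 0.0372).

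Without a reference sequence of miR-148b the plan allowed no test of novel29_mature, and none was given. Outside the plan, novel29_mature was paired with cow miR-148b in a second fit, chosen after the values were seen, that added this row to the shared names. There its log2 fold change was 4.87 ± 0.78 (SE, adjusted p = 0.000260, edgeR), higher in sheep, with 4.11 without sheep replicate 2 and 5.65 without sheep replicate 1. In this fit of 39 miRNAs, 48.7% were called, and 25.6% were called higher in sheep, among them 2 of the 3 members, with miR-148a at 7.70 ± 1.07 (adjusted p = 0.000143) and miR-152 not past the threshold (0.43 ± 1.53, adjusted p = 0.806). How the authors' counting assigned reads to members that differ by 2 bases is not stated in the labels, and its part in these values was not tested.

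**Figure D3:**
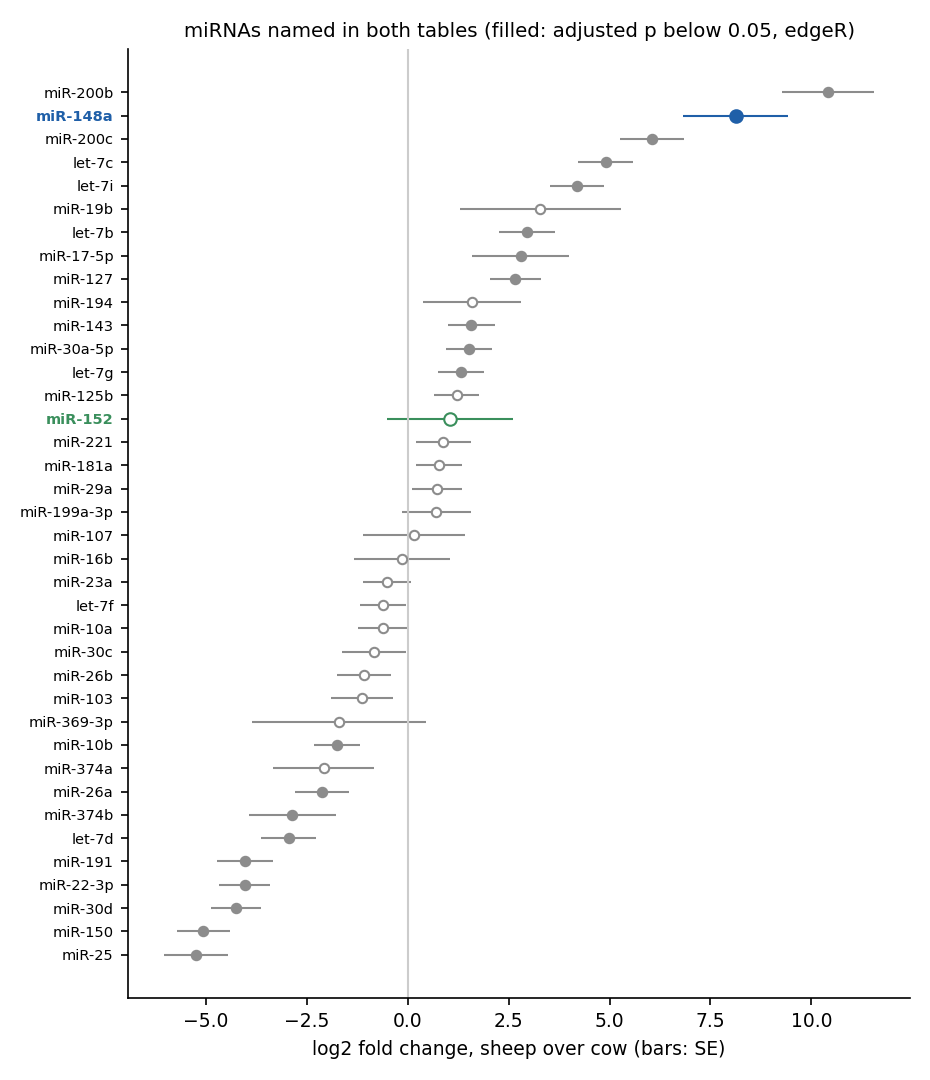
Log2 fold change, sheep over cow, of the 38 miRNAs tested by shared name, with SE bars; filled points passed an adjusted p of 0.05 in edgeR and members are in colour. miR-148a (8.13) was exceeded by miR-200b alone in this fit, and the SE bar of miR-152 (1.05 ± 1.57) reached across 0.

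Ratios between members of the same library need no scaling. miR-148a outnumbered novel29_mature 132-, 176- and 172-fold in sheep replicates 1, 2 and 3, and outnumbered miR-148b 20-, 25.4- and 26.8-fold in cow replicates 1, 2 and 3. The 95% counting intervals reached from 125 to 180 over the sheep libraries and from 13.9 to 48.3 over the cow libraries, so no sheep interval met a cow interval. The log2 ratio was 7.31 ± 0.23 in sheep and 4.58 ± 0.22 in cow (SD, n = 3 each), a difference of 2.73, or 6.65-fold. The exact two-sided permutation test gave p = 0.1, the smallest that 3 libraries against 3 allow, for this and for both other pairs of members, and 0.1 after adjustment over the 3 pairs. For miR-148b over miR-152 this rests on how the count of 0 is set, as log2 of count + 1 gave p = 0.2 in the exact permutation test, with a difference of 2.83 against 3.09. Groups without overlap were common, at 66.4% of all 741 pairs of the 39 miRNAs.

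By its observed values, the ratio of miR-148a to miR-148b was also among the most even between libraries of a species. Its log2 value spanned 0.42 among the sheep libraries and 0.42 among the cow libraries. In cow it rests on 30, 48 and 15 miR-148b counts. Each cow counting interval (13.9 to 29.9, 19.0 to 34.6 and 16.1 to 48.3) held all 3 cow ratios, so these counts cannot show how even the cow ratio is. For the 741 pairs, the median of the larger of the sheep and cow spans was 2.88, and 1 pair had a smaller one. Those pairs were not filtered further and include miRNAs with counts near 0, such as miR-200b in cow. By contrast, the level of miR-148a itself spanned 1.70 among sheep libraries on the log2 CPM scale, close to the median span of 1.90 over 222 sheep rows with at least 10 counts in each library.

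Ratios to miR-152 were far less even. miR-148a outnumbered miR-152 by 2290-, 13918- and 15109-fold in sheep replicates 1, 2 and 3. In cow the ratio was 200 in replicate 1 with the count of 0 set to 3, and its lower counting limit was 162. It was 32.9 in cow replicate 2, and 402 in cow replicate 3 with a counting interval of 71.7 to 15917. Ratios of novel29_mature to miR-152 were 17.4, 79.0 and 87.9 in sheep. Ratios of miR-148b to miR-152 in cow were 10 with the 0 set to 3 (lower counting limit 7.64), then 1.30 and 15 (counting interval 2.31 to 631). The sheep ratios lay above the cow values in both pairs. However, 1 cow value rests on a count of 0 set to 3 and another on a single miR-152 count, so these separations are not firm.

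**Figure D4:**
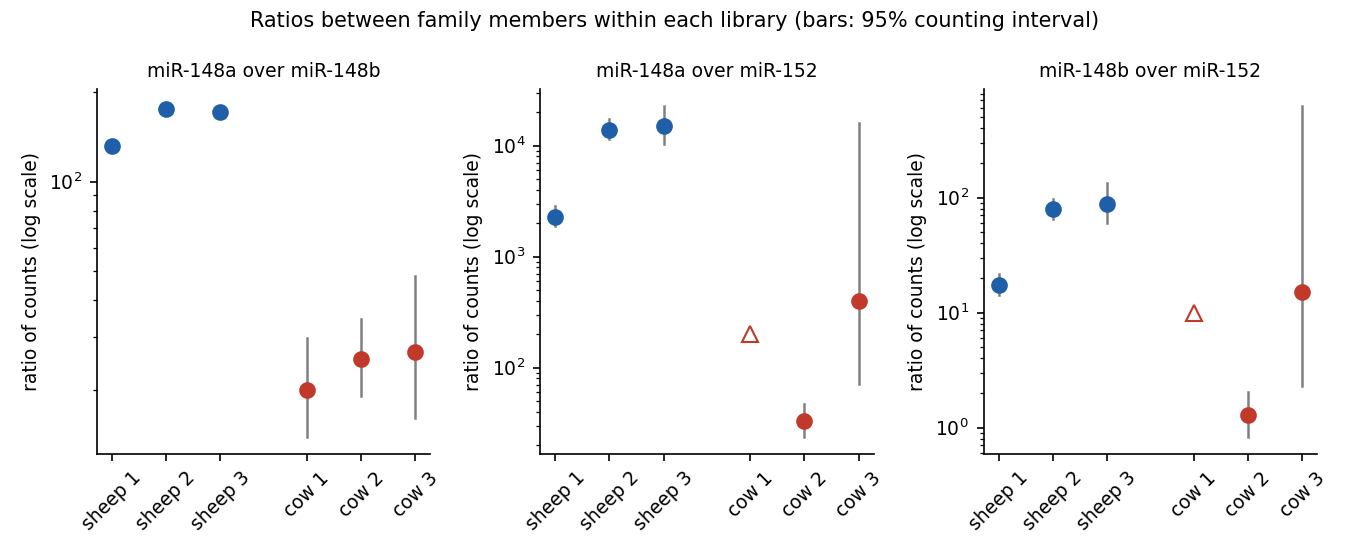
Ratio of counts between members in each library, on log axes, with 95% counting intervals; the open triangle is a lower bound for the library with 0 miR-152 counts, and miR-148b in sheep is novel29_mature. In the left panel the sheep points (132 to 176) stand clear of the cow points (20 to 26.8), while in the other panels cow intervals reach into the sheep range.

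Of the shared miRNAs, those whose pattern over the 6 libraries was most like that of miR-148a were miR-200b, let-7c, miR-200c, let-7i and let-7b, in this order. Likeness was the root mean square difference of normalized log2 CPM, each miRNA centred on its own mean. Unlike the CPM given above, this scale used totals of the shared names and the TMM normalization factors. Those factors ran from 0.200 in sheep replicate 2 to 2.47 in cow replicate 3. The likeness was 1.27, 1.56, 1.60, 1.92 and 2.46 for these miRNAs, against a median of 4.14 over 37 miRNAs. miR-152 came ninth, at 3.11. Since the libraries of both species entered it, this measure includes the difference between the species. By log2 fold change, sheep over cow, the same miRNAs ranked 1, 4, 3, 5 and 7, and miR-148a ranked 2. The list therefore largely follows the size of that difference, and it does not show a shared pattern among libraries of a species. The epithelial miRNA miR-200b had 2678, 1586 and 1525 counts in sheep and 0, 1 and 0 in cow. Its place in likeness thus depends on the value given to a count of 0. let-7c had 27857, 27421 and 27973 counts in sheep and 218, 372 and 175 in cow, without the excess of sheep replicate 2 that miR-148a showed.

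The 2 markers of epithelium that could be compared moved with miR-148a between the species but not within sheep. Of 6 epithelial markers, these were the 2 named in the sheep table, miR-200b and miR-200c. Together they took 0.694%, 0.499% and 0.613% of the counts outside the family in sheep replicates 1, 2 and 3. All 6 were named in the cow table, where the 6 together took 0.0482%, 0.00738% and 0.0145%, with miR-200b at 0 in replicates 1 and 3 and miR-429 at 0 in replicate 3. These cow shares thus cover more markers than the sheep shares. Taken alone, miR-200c had 3508, 2154 and 2546 counts in sheep and 7, 2 and 17 in cow. The library with most miR-148a, sheep replicate 2, had the lowest epithelial share of the 3 sheep libraries. Stromal miRNAs (2 of 3 named in sheep, 3 of 3 in cow) took 0.376% to 0.882% in sheep and 0.0546% to 0.125% in cow. The lymphocyte miRNA miR-150, the only leukocyte marker of 6 named in the sheep table, took 0.0794% in sheep replicate 1 and at most 0.00855% in the other sheep libraries. The 6 leukocyte markers named in the cow table together took 0.463% to 0.902% there. Taken alone, miR-150 had 708, 64 and 39 counts in sheep and 922, 3174 and 1168 in cow. Red blood cell miRNAs (3 of 3 named in cow, 0 of 3 in sheep) took 1.53% to 2.76% in cow, and the endothelial miR-126 (named in cow only) took 0.173% to 0.279%. The liver miRNA miR-122 and the 3 striated muscle miRNAs, also named in cow only, took at most 0.102% and 0.00305% there. Only 84 sheep rows had a miRBase name, against 276 cow rows. A marker without a named sheep row has no sheep value here, which is not the same as a low level. The part of these cells in the family's values was not tested.

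Other miRNAs known from milk did not all follow miR-148a. Of a list of 24, 11 were tested, of which 4 were higher in sheep, 4 higher in cow and 3 did not pass, against 28.9% and 23.7% of all miRNAs tested in the same directions. Higher in sheep by edgeR were miR-200b, miR-200c (6.05 ± 0.79 on the log2 scale, adjusted p = 2.14e-11), let-7b (2.95 ± 0.69, adjusted p = 1.00e-04, uncalled at 1.13 without normalization factors) and miR-30a-5p (1.51 ± 0.57, adjusted p = 0.0194, but -0.19 without factors). Higher in cow were miR-30d (-4.26 ± 0.63), miR-22-3p (-4.05 ± 0.62), miR-191 (-4.03 ± 0.69) and miR-26a (-2.12 ± 0.67, which limma on log2(TPM + 1) put at -0.26 and did not call). The median of the 11 was -0.61 and that of all 38 was 0.43. The calls of let-7b, miR-30a-5p, miR-191 and miR-26a held in 17, 13, 17 and 14 of 18 other settings. Without normalization factors, 2 of the 11 were called higher in sheep and 6 higher in cow.

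**Figure D5:**
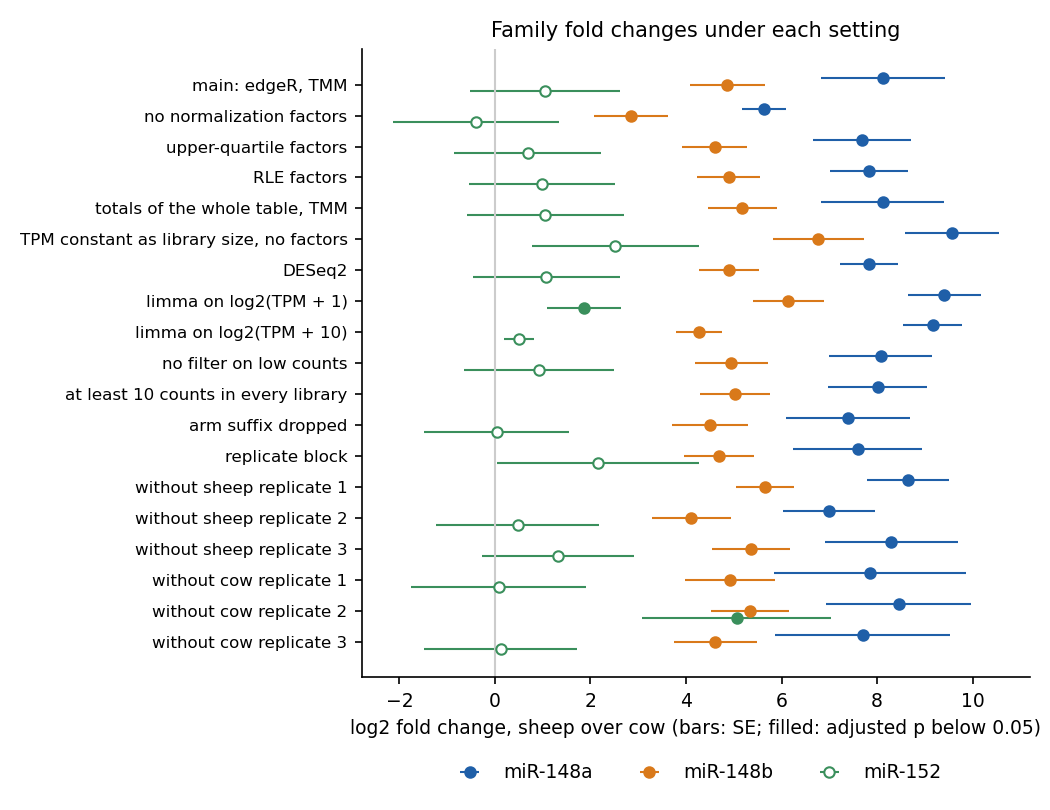
Log2 fold change, sheep over cow, of miR-148a, miR-148b (second fit) and miR-152 under each setting, with SE bars; filled points passed an adjusted p of 0.05. miR-148a stayed between 5.63 and 9.57 and miR-148b between 2.85 and 6.77, all filled, whereas miR-152 ranged from -0.40 to 5.06 and is missing where it did not pass the filter.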

How the data were processed

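EVs were precipitated by kit, RNA was column-purified and libraries were made, per the labels' protocols, by adapter ligation and PCR, so counts are not molecules and intervals cover counting error only. The deposited counts are whole reads per miRNA row; the tools listed are cutadapt 1.14 and Bowtie, per the submitters' processing notes. Build, miRBase release and counter are not stated there. The deposited TPM is the count divided by 1 constant per library, times 1000000, with no length correction; the labels do not say what that constant counts. No libraries were identical.

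Rows were joined by mature name without species prefix (42 names, 38 past filterByExpr) and tested with edgeR 4.0.16 (quasi-likelihood, TMM, totals of shared names, Benjamini-Hochberg, threshold 0.05). SE is the fold change over the root of F. Alternatives used DESeq2 1.42.0, limma 3.58.1, other scalings, filters and joins, and each library left out. Ratios used exact permutation tests, with a count of 0 set to 3; shares have 95% Wilson intervals, at most 0.0918 percentage points either side for miR-148a. The edgeR step was also run on counts simulated with a common dispersion for all miRNAs, a simpler setting than these data. No result given here rests on that run. No sequence of miR-148b was given, so the planned naming of novel29_mature was not made. P-values measure only the spread between these libraries. The miRNAs named were all members, the 5 most like miR-148a, the largest row of each library and up to 4 of the milk list in each direction. Members and lists were chosen with earlier results of these data known.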

Additional observations from a re-analysis of the deposited data

How the results depend on the processing

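miR-148a kept its direction and its call in all 19 other settings (5.63 to 9.57 on the log2 scale; 6.99 to 8.64 with 1 library left out), and novel29_mature against miR-148b in all 18 (2.85 to 6.77; 4.11 to 5.65 with 1 left out). miR-152 turned to -0.40 without normalization factors and passed with limma on log2(TPM + 1) (1.86, adjusted p = 0.0372); it ran from 0.079 to 5.06 with 1 library left out, could not be tested without sheep replicate 1 or with at least 10 counts in every library, and had no adjusted p in DESeq2. The cause was not tested. Scaling moved the median change by -1.75 without factors and by 1.87 with log2(TPM + 1), and the calls, given as higher in sheep and then higher in cow, were 11 and 9 with TMM, 5 and 13 without factors, 7 and 10 with upper-quartile factors, 17 and 5 with the TPM constant as library size, 20 and 5 with log2(TPM + 1) and 16 and 4 with log2(TPM + 10). miR-30a-5p turned to -0.19 without factors. The cow family share of all counts became 0.431% without the largest row outside the family, which holds most cow counts; all other shares moved by less than 1 SD. With 1 library left out, the log2 differences of the ratios were 2.60 to 2.87 for miR-148a over miR-148b, 4.79 to 6.71 for miR-148a over miR-152 and 2.01 to 3.85 for miR-148b over miR-152, and none changed sign; each such split has a smallest p of 0.2. The labels' replicate numbers do not pair animals, and deviations of same-numbered libraries correlated by -0.0904, 0.208 and 0.107 across 38 miRNAs. With the number as a replicate block, 14 miRNAs were called instead of 20, with miR-148a at 7.59, miR-152 at 2.15 and miR-148b at 4.69. The join by RefSeq sequence was not run, as no such sequences were used here. miR-152 had the fewest cow counts of the members, 38 in all, of which 37 lay in cow replicate 2.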

Other observations

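The opposite arm of the hairpin that gives novel29_mature was listed in the sheep table as novel29_star, with 15, 9 and 11 counts in sheep replicates 1, 2 and 3. The main arm thus outnumbered it 110-, 834- and 216-fold, or 329-fold over all sheep counts. The star count did not follow the main arm, which was highest in replicate 2, the library with the fewest star counts. Among 57 sheep hairpins without a miRBase name whose star row had at least 10 counts, the median ratio was 6.39, and 2 hairpins had a higher one than novel29.

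The letters of the family's seed also occurred outside bases 2 to 8 in 9 other sheep rows. These included miR-17-5p (82, 174 and 382 counts in sheep replicates 1, 2 and 3) and miR-106b (19, 50 and 2 counts), related miRNAs with a seed of their own, where the letters begin at base 12. None of these rows was counted with the family.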
